A study of Mus musculus with 8 samples.

Results

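The meiotic recombination genes described here are Spo11, Dmc1, Psmc3ip, Mnd1, Msh4, Msh5, Mlh3 and Exo1, chosen by gene name for their roles in making DNA breaks, exchanging strands and forming crossovers. They had 13 probe sets annotated to them alone, of 45037 probe sets that are no controls, and they are 8 of 18193 genes with such a probe set. No probe set was shared by one of them and another gene. RNA from 4 kinds of mouse male germ cell was measured on 8 oligonucleotide arrays, 2 for each stage. The stages were type A spermatogonia and type B spermatogonia, which divide by mitosis, then pachytene spermatocytes in meiotic prophase, then round spermatids, which have finished meiosis. All were labelled with the strain BL/6-129, no treatment and no allele was given, and the series' text describes the preparations as independent of each other. The labels give neither the purification of the cells and their purity nor the age of the mice.

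Meiotic recombination starts when SPO11 cuts both strands of the DNA in early meiotic prophase. The ends are cut back to single strands, which recombinases then carry into the homologous chromosome with the help of accessory proteins. Mismatch repair proteins that act in meiosis stabilise some of the joint molecules and turn them into crossovers, which hold homologous chromosomes together until the first meiotic division. Breaks are made in leptotene, strand exchange runs through zygotene, and crossovers mature in pachytene, so the stages of breakage and strand exchange lie between type B spermatogonia and pachytene spermatocytes and had no array of their own.

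RefSeq promoters (GRCm38.p6, 250 bases before to 50 after each start) were at hand for 6 of the 8 genes, namely Mnd1, Msh4, Psmc3ip, Mlh3, Dmc1 and Msh5. Spo11 and Exo1 had none in that table. The promoters of Dmc1, Psmc3ip, Mlh3 and Msh5 are shown because the levels of these genes took different courses: Dmc1 was lowest in pachytene spermatocytes, Psmc3ip was high there and in spermatids, Mlh3 was high in pachytene spermatocytes, and Msh5 passed no test. Each runs 5′ to 3′ on the gene's own strand, and capitals mark matches to the motifs searched. The Dmc1 window is chr15:79605060-79605359, that of Psmc3ip is chr11:101095386-101095685, that of Mlh3 is chr12:85270550-85270849 and that of Msh5 is chr17:35046573-35046872, all on the minus strand. The Msh5 window lies inside the listed gene, chr17:35028605-35046997, so the start it is built on is not the outer end of that gene.
Dmc1: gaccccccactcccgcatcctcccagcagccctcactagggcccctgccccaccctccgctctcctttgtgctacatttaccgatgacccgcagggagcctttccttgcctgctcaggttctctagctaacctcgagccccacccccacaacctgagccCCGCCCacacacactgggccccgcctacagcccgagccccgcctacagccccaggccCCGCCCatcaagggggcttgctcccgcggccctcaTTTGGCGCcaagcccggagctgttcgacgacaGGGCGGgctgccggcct
Psmc3ip: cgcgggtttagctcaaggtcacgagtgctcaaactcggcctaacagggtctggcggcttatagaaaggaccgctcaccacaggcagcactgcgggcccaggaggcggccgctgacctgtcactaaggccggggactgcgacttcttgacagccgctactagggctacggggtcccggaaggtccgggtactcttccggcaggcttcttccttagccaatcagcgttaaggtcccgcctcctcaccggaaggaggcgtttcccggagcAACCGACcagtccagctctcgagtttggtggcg
Mlh3: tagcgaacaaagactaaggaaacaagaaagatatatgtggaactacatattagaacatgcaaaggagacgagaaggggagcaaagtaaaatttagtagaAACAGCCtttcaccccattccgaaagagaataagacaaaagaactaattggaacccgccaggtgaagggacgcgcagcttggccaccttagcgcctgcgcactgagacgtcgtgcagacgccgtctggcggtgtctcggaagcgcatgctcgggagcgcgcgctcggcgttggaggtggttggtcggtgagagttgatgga
Msh5: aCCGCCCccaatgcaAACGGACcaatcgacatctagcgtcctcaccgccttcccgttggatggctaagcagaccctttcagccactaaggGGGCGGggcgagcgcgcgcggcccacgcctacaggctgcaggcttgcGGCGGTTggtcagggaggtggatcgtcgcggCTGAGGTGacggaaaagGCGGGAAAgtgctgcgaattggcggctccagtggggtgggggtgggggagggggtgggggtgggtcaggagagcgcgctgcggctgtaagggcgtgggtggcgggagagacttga

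The motifs were searched on both strands as the letters TTTNNCGC (E2F), AACNGNC (MYB), CNCCTCAG (STRA8), TGACGTCA (CRE) and GGGCGG (GC box). Of 32851 mouse promoters of the same length, 5.17% held the E2F letters, 32.8% the MYB letters, 7.94% the STRA8 letters, 1.79% the CRE letters and 35.7% the GC box. In the Dmc1 window the E2F letters read TTTGGCGC and began 1 base after the start, beside 3 GC boxes. The Msh5 window held the E2F letters, the STRA8 letters, 2 MYB matches and 2 GC boxes. In both the Psmc3ip and the Mlh3 window the only match was to the MYB letters, which began 17 bases after the Psmc3ip start and 151 bases before the Mlh3 start. A match is a run of letters and not a measured site, and no match says only that the letters are not in that window.

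Values are intensities on a linear scale, whose trimmed mean was the same, 125.0, on all 8 arrays. A change is a difference of log2(intensity + 16) with its standard error (SE), n = 2 arrays against 2, and it counts as higher or lower at a limma adjusted p under 0.05 over 28635 probe sets. This scale understates the change of a probe set of low intensity, and intensities of different probe sets are not compared. The median probe set read 33.7 to 37.3 in pachytene spermatocytes and spermatids, against 41.5 to 51.9 in spermatogonia. The median change over all probe sets was -0.27 for pachytene spermatocytes against type A spermatogonia, and it was 0.72 after centring on ribosomal protein probe sets. Changes are therefore relative to the rest of the array. In these bulk preparations fewer cells of a type and less RNA per cell cannot be told apart.

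The arrays were checked against markers of their labels. Neither spermatogonial list set spermatogonia apart from both later stages by its sum. The 6 differentiating markers summed to 3227.6 to 3954.9 in spermatogonia, 2003.3 and 2331.8 in pachytene spermatocytes and 3198.8 and 3307.2 in spermatids. Within that list Kit, a receptor of differentiating spermatogonia, read 63.5 and 64.8 in pachytene spermatocytes, against 461.9 to 853.1 on the 4 spermatogonial arrays. Dmrtb1 went the other way, with 1640.0 and 1912.4 in pachytene spermatocytes against 254.0 to 734.6 in spermatogonia. The 5 undifferentiated markers summed to 1109.3 to 1782.9 in spermatogonia, 1736.7 and 1605.0 in pachytene spermatocytes and 355.9 and 336.7 in spermatids. Among them Id4 read 1460.1 and 1320.6 in pachytene spermatocytes against 197.1 to 372.9 in spermatogonia, and Zbtb16, a factor of spermatogonial stem cells, read 85.2 and 76.8 against 389.3 to 1087.6. The summed level of 10 round spermatid markers was 28894.4 and 33007.9 in spermatids and 4152.3 and 4760.5 in pachytene spermatocytes. The 10 pachytene markers, which spermatids also carry, summed to 20355.5 and 21554.1 in pachytene spermatocytes. The second type B array stood apart from the first. On it the pachytene markers summed to 9430.3, against 1032.3 on the first, and the lactate dehydrogenase gene Ldhc read 4895.9 against 28.3. The 10 spermatid markers summed to 2124.6 on the second type B array and 179.6 on the first. The 9 markers of early meiotic prophase went the other way, with 3871.4 on the second array and 8185.1 on the first. They summed to 9348.2 and 7834.1 in pachytene spermatocytes and 7386.9 and 6704.5 in spermatids. So this sum did not set the first type B array apart from pachytene spermatocytes. For pachytene spermatocytes against type B spermatogonia, the 11 tested recombination probe sets are given with and without each type B array. Those values of Exo1 1418027_at are in the account of the alternatives. For type B against type A spermatogonia this is done only for Dmc1, Psmc3ip and Msh5. Markers of other testis cells were present as well. The 7 stromal markers summed to 9353.4 and 12163.6 in type A spermatogonia, 13870.6 and 14660.3 in type B spermatogonia, and at most 1170.7 on a pachytene or spermatid array. The 9 Sertoli cell markers summed to 4654.2 to 8500.3 on the spermatogonial arrays, 2899.0 and 3668.8 in pachytene spermatocytes and 585.4 and 661.1 in spermatids. None of the measured markers was at 0 on an array.

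**Figure D1:**
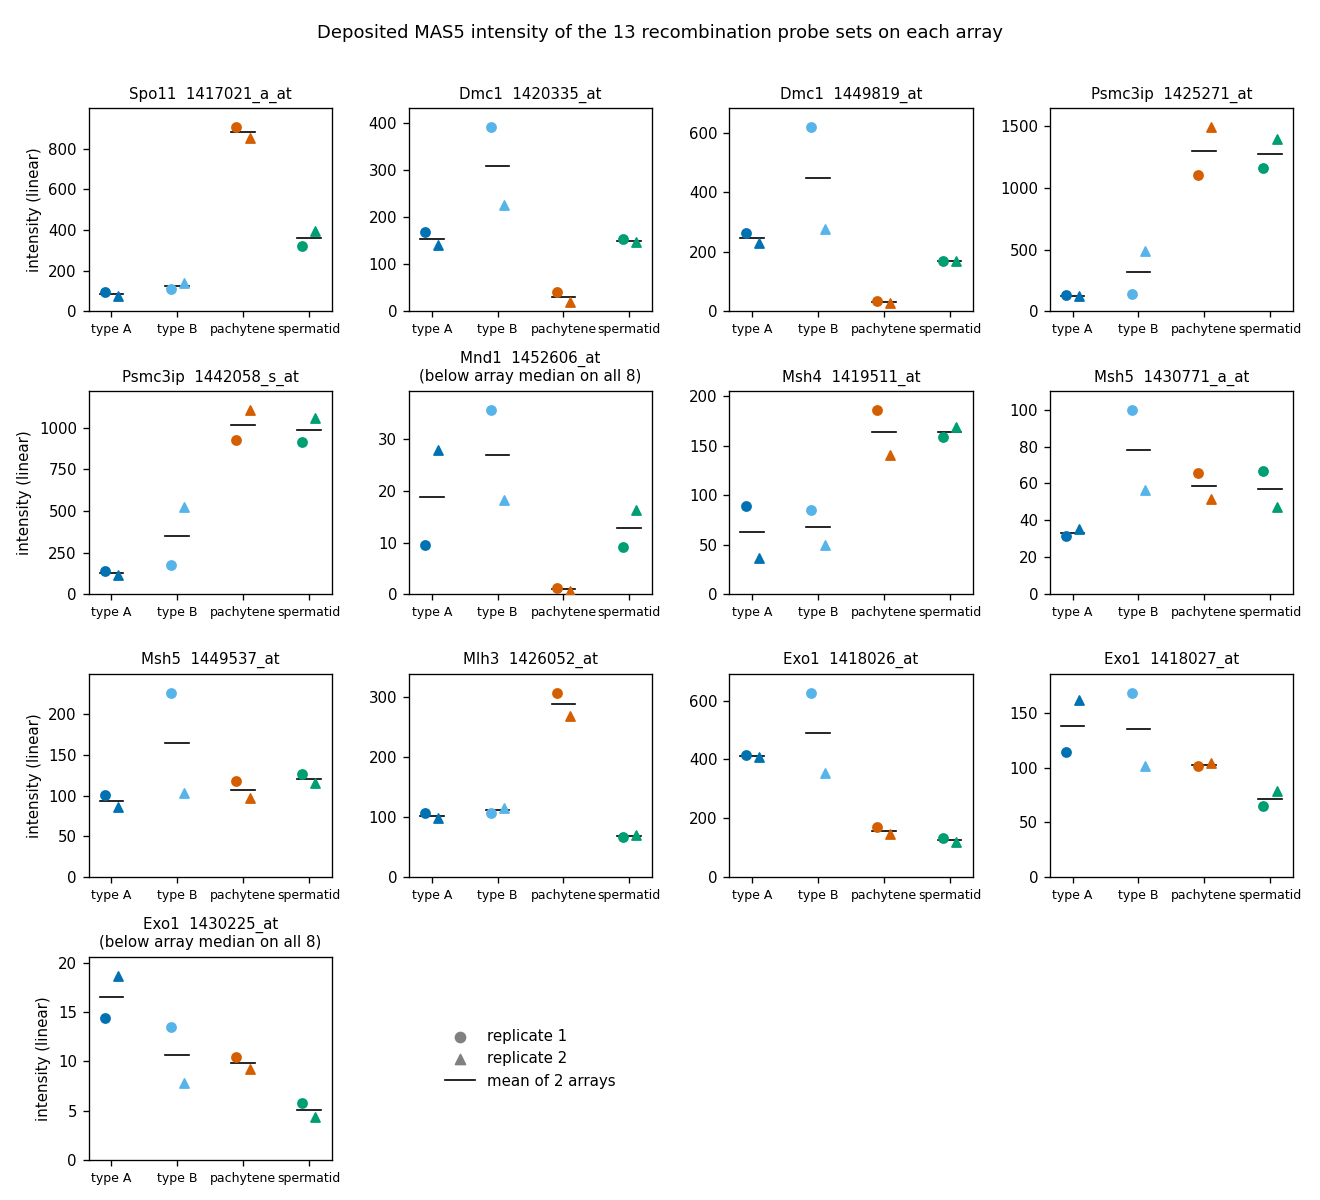
Deposited MAS5 intensity (linear axis from 0, a scale of its own in each panel) of the 13 recombination probe sets on each of the 8 arrays, with circles for replicate 1, triangles for replicate 2 and a bar at the mean of the 2 arrays. Spo11 was highest in pachytene spermatocytes (906.9 and 854.3), where both Dmc1 probe sets were lowest (20.1 to 42.2), and the type B arrays lie apart in most panels.

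Between pachytene spermatocytes and type B spermatogonia, 5 of the 11 probe sets tested rose (Spo11, both of Psmc3ip, Msh4 and Mlh3) and 3 fell (both of Dmc1 and 1 of Exo1). Over all probe sets tested, 20.3% rose and 29.4% fell in that comparison. Pachytene spermatocytes against type A spermatogonia gave the same counts, 5 higher and 3 lower, where 22.0% of all probe sets rose and 34.7% fell. Both comparisons use the same pachytene arrays. In round spermatids against pachytene spermatocytes, 2 of 11 rose (both of Dmc1) and 2 fell (Spo11 and Mlh3), against 11.7% higher and 15.7% lower over all probe sets. Between type B and type A spermatogonia none of the 11 passed limma's adjusted test, and none of the 28635 did (0% higher, 0% lower). At an unadjusted p under 0.05, 3 of the 11 were higher in type B and 0 lower, beside 1121 higher and 1201 lower over all probe sets. The probe sets of Mnd1 and a further Exo1 probe set, 1430225_at, lay below the array median on all 8 arrays and were not among the 11. The shares over all probe sets move with the scaling: 38.8% of the calls between pachytene spermatocytes and type A spermatogonia were higher as deposited, 48.8% after quantile normalization, 55.9% with the 75th percentile as centre and 82.1% with ribosomal protein probe sets as centre. For pachytene spermatocytes against type B spermatogonia that share was 40.8%, and 50.2% under quantile normalization, 58.0% on the 75th percentile and 94.2% on ribosomal protein probe sets. It was 42.7% for spermatids against pachytene spermatocytes and 53.6% on ribosomal protein probe sets.

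**Figure D2:**
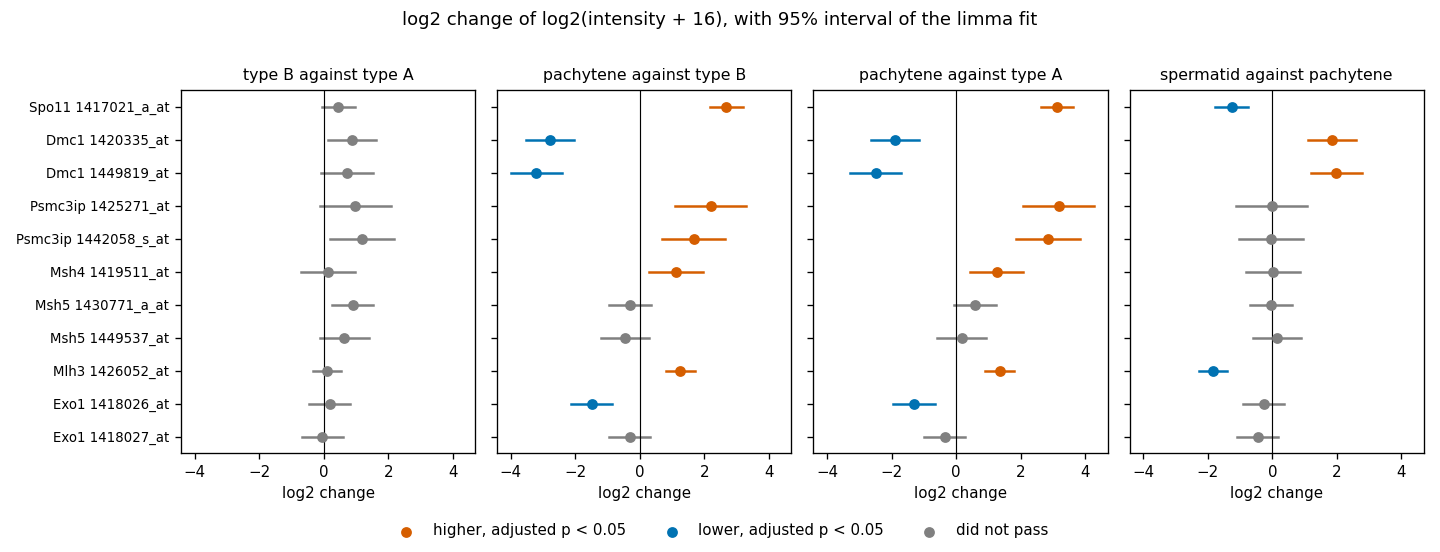
Change of log2(intensity + 16) of the 11 tested probe sets (points) with its 95% interval from the limma fit (bars) in 4 comparisons, coloured by whether the adjusted p was under 0.05. Spo11, Psmc3ip, Msh4 and Mlh3 lie above 0 and Dmc1 below 0 in both pachytene comparisons, and no probe set passed between type B and type A spermatogonia.

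Spo11 encodes the topoisomerase-like protein that makes the breaks (1417021_a_at, gene at chr2:172977379-172993576, GRCm38.p6). Its intensity was 95.7 and 78.2 in type A spermatogonia, 110.9 and 138.9 in type B spermatogonia, 906.9 and 854.3 in pachytene spermatocytes, and 323.3 and 396.6 in round spermatids. The 4 stages did not overlap, and both pachytene arrays were above all others. Pachytene spermatocytes had a mean 7.05 times that of type B spermatogonia, a rise of 2.68 ± 0.22 on the log2 scale (SE, limma adjusted p = 0.000174). Against type A spermatogonia the rise was 3.13 ± 0.22 (limma adjusted p = 0.000138). Spermatids had 0.409 times the pachytene mean, and Spo11 fell by 1.26 ± 0.22 between them (limma adjusted p = 0.00425). Even so, both spermatid arrays stood above the 4 spermatogonial arrays, with a mean 2.88 times that of type B spermatogonia. In order of level, pachytene spermatocytes came first, then spermatids, then the spermatogonia, whose stages were not separated by the test. Without the first type B array the rise over type B spermatogonia was 2.53 (limma adjusted p = 0.00102), and without the second it was 2.82 (limma adjusted p = 0.00022). Spo11 kept its call in all 3 of these comparisons under every alternative processing tried.

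Dmc1 encodes the recombinase found only in meiosis, which coats the single strands and pairs them with the homologous chromosome (gene at chr15:79561497-79605159). Its course was opposite to that of Spo11: it was lowest in pachytene spermatocytes. Probe set 1449819_at read 265.0 and 229.3 in type A spermatogonia, 619.7 and 278.4 in type B spermatogonia, 34.9 and 26.7 in pachytene spermatocytes, and 169.8 and 167.8 in spermatids. Both pachytene arrays were below all others. The pachytene mean was lower than that of type B spermatogonia by a factor of 14.6, and the fall on the log2 scale was -3.21 ± 0.34 (SE, limma adjusted p = 0.000362). Against type A spermatogonia the change was -2.49 ± 0.34 (limma adjusted p = 0.000624). Spermatids then had 5.48 times the pachytene mean, a rise of 1.99 ± 0.34 (limma adjusted p = 0.00418), but stayed below both spermatogonial stages.

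The other Dmc1 probe set, 1420335_at, took the same course. It read 168.1 and 140.6 in type A spermatogonia, 392.5 and 225.6 in type B spermatogonia, 42.2 and 20.1 in pachytene spermatocytes, and 153.2 and 147.8 in spermatids. Here spermatids overlapped with type A spermatogonia. It fell by 2.78 ± 0.32 in pachytene spermatocytes against type B spermatogonia (limma adjusted p = 0.000469) and by 1.89 ± 0.32 against type A spermatogonia (limma adjusted p = 0.0016). With ribosomal protein probe sets as centre the change against type A spermatogonia was -0.90 and no longer passed (limma adjusted p = 0.095). In spermatids it rose by 1.86 ± 0.32 over pachytene spermatocytes (limma adjusted p = 0.00418). In type B spermatogonia both probe sets were higher than in type A on every array, by 0.89 ± 0.32 for 1420335_at (limma adjusted p = 0.614) and 0.72 ± 0.34 for 1449819_at (limma adjusted p = 0.616), and neither passed. The size of that difference rests on the first type B array: for 1449819_at it was 0.17 without it and 1.28 without the second, and for 1420335_at 0.51 and 1.27. The fall in pachytene spermatocytes was -2.66 for 1449819_at without the first type B array (limma adjusted p = 0.000939) and -3.77 without the second (limma adjusted p = 6.8e-05). For 1420335_at it was -2.40 without the first (limma adjusted p = 0.00191) and -3.16 without the second (limma adjusted p = 0.000364).

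Both spermatid arrays lay above both pachytene arrays for 28.9% of all probe sets tested, and below them for 39.8%. Of 6 markers of differentiating spermatogonia, 4 lay above in this way, namely Kit, Sohlh2, Dmrtb1 and Stra8, and of the 6 Kit (limma adjusted p = 0.00857) and Stra8 (limma adjusted p = 0.0162) passed the test. Dmrtb1 counts among the 4 although it was lowest in spermatogonia. Stra8, which starts the meiotic programme, read 189.6 and 197.3 in spermatids and 61.3 and 89.3 in pachytene spermatocytes. Ccnd2, a cyclin of dividing spermatogonia, overlapped, with 83.9 and 109.3 in spermatids and 85.3 and 107.7 in pachytene spermatocytes. Of 9 early prophase markers 2 lay above, Rec8 and Prdm9, and 4 lay below. Only Rec8 passed the test, as higher (limma adjusted p = 0.000134). Of 5 undifferentiated markers 1 lay above and 2 below, and 2 passed as lower. The 7 measured macrophage and blood markers also lay above, summing to 464.1 and 444.8 in spermatids, against 234.9 and 225.0 in pachytene spermatocytes. Of the 6 tested, Csf1r (limma adjusted p = 0.0174) and Lyz2 (limma adjusted p = 0.0028) passed. Of 7 stromal markers 4 lay above and 2 passed. The Sertoli and Leydig cell markers went the other way, with 8 of 9 and 4 of 4 below, and 6 and 4 of them passed. The part of these cells in the higher Dmc1 level was not tested.

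Psmc3ip encodes HOP2, which with MND1 helps the recombinases to capture and open the partner duplex (gene at chr11:101092141-101095435). It was high in pachytene spermatocytes and stayed high in spermatids. Probe set 1425271_at read 129.2 and 125.4 in type A spermatogonia, 142.5 and 488.4 in type B spermatogonia, 1103.5 and 1494.6 in pachytene spermatocytes, and 1158.1 and 1393.4 in spermatids. The later stages overlapped with each other and lay above every spermatogonial array, and the second type B array lay between. The pachytene mean was 10.2 times that of type A spermatogonia, a rise of 3.18 ± 0.48 (SE, limma adjusted p = 0.000896). Against type B spermatogonia the rise was 2.20 ± 0.48 (limma adjusted p = 0.00611), with 1.37 without the first type B array (limma adjusted p = 0.00727) and 3.04 without the second (limma adjusted p = 0.00023). Between spermatids and pachytene spermatocytes the difference was -0.02, with a 95% interval from -1.11 to 1.08 (limma adjusted p = 0.988). An interval this wide does not show that the levels were equal.

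The second Psmc3ip probe set, 1442058_s_at, read 139.6 and 115.4 in type A spermatogonia, 178.3 and 525.6 in type B spermatogonia, 926.2 and 1107.5 in pachytene spermatocytes, and 914.4 and 1056.6 in spermatids. It rose by 2.85 ± 0.43 in pachytene spermatocytes over type A spermatogonia (limma adjusted p = 0.000908) and by 1.67 ± 0.43 over type B spermatogonia (limma adjusted p = 0.013). The call over type B spermatogonia was lost without the second pachytene array (limma adjusted p = 0.07), and the rise was 0.93 without the first type B array (limma adjusted p = 0.0243) and 2.41 without the second (limma adjusted p = 0.00041). Between spermatids and pachytene spermatocytes its difference was -0.04 (95% interval -1.03 to 0.94, limma adjusted p = 0.961). The spread of the type B arrays enters this interval as well. In type B against type A spermatogonia, Psmc3ip was higher by 0.98 ± 0.48 on 1425271_at (limma adjusted p = 0.616) and 1.18 ± 0.43 on 1442058_s_at (limma adjusted p = 0.614). Without the first type B array both passed, at 1.82 (limma adjusted p = 0.013) and 1.92 (limma adjusted p = 0.00741), and without the second they were 0.15 (limma adjusted p = 0.933) and 0.44 (limma adjusted p = 0.805). The second type B array is the one that also carried pachytene and spermatid markers, and their part in this difference was not tested.

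Mnd1, the partner of Psmc3ip, had a single probe set, 1452606_at, below the array median on all 8 arrays (gene at chr3:84087933-84155798). It read 9.6 and 28.0 in type A spermatogonia, 35.7 and 18.2 in type B spermatogonia, 1.2 and 0.7 in pachytene spermatocytes, and 9.2 and 16.3 in spermatids. Signals this low are not shown to be above background, so no order of stages is read from them. In a fit with no filter on low values, pachytene spermatocytes differed by -1.31 ± 0.32 from type B spermatogonia (SE, limma adjusted p = 0.0174). From type A spermatogonia they differed by -0.99 ± 0.32 (limma adjusted p = 0.0442). At signals this low these differences are not read as a fall of Mnd1. The difference in spermatids over pachytene spermatocytes was 0.75 ± 0.32 and did not pass (limma adjusted p = 0.176).

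Msh4 and Msh5 encode the partners of a clamp that holds joint molecules and favours crossovers. Msh4 (1419511_at, gene at chr3:153857141-153906138) read 89.3 and 36.8 in type A spermatogonia, 85.5 and 49.7 in type B spermatogonia, 186.3 and 140.6 in pachytene spermatocytes, and 159.3 and 169.2 in spermatids. The later stages overlapped with each other and lay above all spermatogonial arrays. Msh4 rose by 1.26 ± 0.36 in pachytene spermatocytes over type A spermatogonia (SE, limma adjusted p = 0.0181) and by 1.12 ± 0.36 over type B spermatogonia (limma adjusted p = 0.0322). Both calls rested on single arrays. The first was lost without the second type A array (0.76, limma adjusted p = 0.0937) or the first pachytene array (1.07, limma adjusted p = 0.0986). The call over type B spermatogonia was lost without the second type B array (0.81, limma adjusted p = 0.148), without either pachytene array (0.94 and 1.31), without either spermatid array (limma adjusted p = 0.058), at a pseudocount of 1 (limma adjusted p = 0.0565) and with no filter (limma adjusted p = 0.0503), and without the first type B array it was kept (1.44, limma adjusted p = 0.0284). Between spermatids and pachytene spermatocytes the difference was 0.02 (95% interval -0.82 to 0.85, limma adjusted p = 0.981).

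Msh5 passed no test in any of the 4 comparisons (gene at chr17:35028605-35046997). Its probe set 1449537_at read 100.8 and 85.9 in type A spermatogonia, 226.3 and 103.6 in type B spermatogonia, 117.9 and 97.1 in pachytene spermatocytes, and 126.3 and 115.4 in spermatids. The probe set 1430771_a_at read 31.5 and 35.3 in type A spermatogonia, 99.9 and 56.5 in type B spermatogonia, 65.8 and 51.8 in pachytene spermatocytes, and 67.0 and 47.0 in spermatids. On both the first type B array was the highest of all 8, and type B spermatogonia lay above type A without overlap. Between these stages the differences were 0.64 ± 0.33 for 1449537_at (SE, limma adjusted p = 0.62) and 0.89 ± 0.28 for 1430771_a_at (limma adjusted p = 0.614). Without the first type B array they were 0.13 and 0.55, and without the second 1.15 and 1.23, and neither passed in either case. For pachytene spermatocytes against type A spermatogonia, 1430771_a_at was 0.59 ± 0.28 higher as deposited (limma adjusted p = 0.103), and it passed at 0.95 under quantile normalization (limma adjusted p = 0.0281), 0.98 on the 75th percentile (limma adjusted p = 0.0193) and 1.59 on ribosomal protein probe sets (limma adjusted p = 0.00254). The other probe set, at 0.17 ± 0.33 in that comparison (limma adjusted p = 0.673), passed only on ribosomal protein probe sets, at 1.17 (limma adjusted p = 0.0283). Against type B spermatogonia the pachytene level of 1449537_at was -0.47 ± 0.33 (limma adjusted p = 0.264), a difference that was -0.98 without the second type B array (limma adjusted p = 0.0139) and 0.04 without the first (limma adjusted p = 0.904). For 1430771_a_at it was -0.30 ± 0.28 (limma adjusted p = 0.401), -0.64 without the second type B array and 0.04 without the first, and the sign of both turned on ribosomal protein probe sets, that of 1430771_a_at also under quantile normalization and on the 75th percentile. In spermatids against pachytene spermatocytes the differences were 0.15 for 1449537_at (95% interval -0.60 to 0.90, limma adjusted p = 0.792) and -0.04 for 1430771_a_at (limma adjusted p = 0.938).

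Mlh3 encodes a subunit of the nuclease that resolves joint molecules into crossovers in pachytene (1426052_at, gene at chr12:85234466-85270647). It read 107.3 and 97.7 in type A spermatogonia, 107.5 and 114.6 in type B spermatogonia, 306.6 and 267.7 in pachytene spermatocytes, and 66.5 and 70.6 in spermatids. Pachytene spermatocytes stood above, and spermatids below, all other arrays. Mlh3 rose by 1.35 ± 0.19 in pachytene spermatocytes over type A spermatogonia (SE, limma adjusted p = 0.000715) and by 1.25 ± 0.19 over type B spermatogonia (limma adjusted p = 0.00133). Spermatids had 0.239 times the pachytene mean, and Mlh3 fell by 1.84 ± 0.19 between them (limma adjusted p = 0.000448). These calls held under every alternative processing tried. Over type B spermatogonia the rise was 1.21 without the first type B array (limma adjusted p = 0.00585) and 1.29 without the second (limma adjusted p = 0.00332). Spo11 was the other member that was highest in pachytene spermatocytes and lower in spermatids, but it stayed above the spermatogonia there, whereas Mlh3 went below them.

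Exo1 encodes an exonuclease that trims break ends and also serves crossing over, as well as mismatch repair in dividing cells (gene at chr1:175880768-175911396). Probe set 1418026_at read 415.4 and 409.5 in type A spermatogonia, 627.0 and 353.0 in type B spermatogonia, 169.1 and 145.4 in pachytene spermatocytes, and 134.9 and 120.6 in spermatids. Every spermatogonial array was above every later one. It fell by 1.31 ± 0.28 in pachytene spermatocytes against type A spermatogonia (SE, limma adjusted p = 0.00466) and by 1.49 ± 0.28 against type B spermatogonia (limma adjusted p = 0.00313). Without the first type B array the change against that stage was -1.09 (limma adjusted p = 0.0089), and without the second it was -1.90 (limma adjusted p = 0.000693). On ribosomal protein probe sets neither passed, at -0.32 against type A spermatogonia (limma adjusted p = 0.578) and -0.02 against type B spermatogonia (limma adjusted p = 0.966). In spermatids against pachytene spermatocytes it differed by -0.27 ± 0.28 (limma adjusted p = 0.547). The stromal and Sertoli cell marker sums given above were also lower in pachytene spermatocytes, and their part in this fall was not tested.

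The other Exo1 probe sets did not pass. Probe set 1418027_at read 114.0 and 161.7 in type A spermatogonia, 168.5 and 102.0 in type B spermatogonia, 101.9 and 103.9 in pachytene spermatocytes, and 64.9 and 78.4 in spermatids. Its type B arrays spanned the pachytene values. In pachytene spermatocytes it differed by -0.35 ± 0.27 from type A spermatogonia (SE, limma adjusted p = 0.301) and by -0.31 ± 0.27 from type B spermatogonia (limma adjusted p = 0.376), and both signs turned under quantile normalization, on the 75th percentile and on ribosomal protein probe sets. Its difference in spermatids against pachytene spermatocytes was -0.44 ± 0.27 (limma adjusted p = 0.286). Probe set 1430225_at lay between 4.4 and 18.7 on all arrays. The root mean square difference between centred profiles over the 8 arrays was 0.527 for 1418026_at and 1418027_at, against 0.279 for the Dmc1 pair, 0.250 for the Psmc3ip pair and 0.201 for the Msh5 pair.

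The type B arrays differed in the recombination genes. Of all 13 probe sets, 9 were over 1.5 times higher on the first array than on the second, those of Dmc1, Msh5, Msh4, Mnd1 and Exo1. The Mnd1 probe set and the dimmest Exo1 probe set lay below the array median on every array. Among the 11 tested, 7 were over 1.5 times higher on the first array (63.6%), against 15.1% over all probe sets tested. Several of the 7 belong to the same gene. On the second array 2 of the 11 were over 1.5 times higher (18.2%), both of Psmc3ip. That share is close to the 19.0% over all probe sets tested. Spo11 and Mlh3 differed by less than 1.5 times between the type B arrays, although both were high in pachytene spermatocytes. Measured from the first type B array towards the pachytene mean, the second lay 29.9% and 41.4% of the way for the Psmc3ip probe sets. It lay 3.64% of the way for Spo11, 3.95% for Mlh3 and 42.2% for the summed pachytene markers. That sum leans on Ldhc, which held 4895.9 of the 9430.3 on the second array. Of the 10 markers 9 were higher there, but unevenly. Piwil1 read 251.9 against 48.3, with 1791.5 and 1620.7 in pachytene spermatocytes, and Mybl1 read 239.3 against 236.1. Among genes low in pachytene spermatocytes the second array also lay towards the pachytene mean, by 46.2% and 58.0% for Dmc1 and 58.3% for Exo1 on 1418026_at. Msh4, which rose in pachytene spermatocytes, lay away from it, at -45.9%, and both Msh5 probe sets lay just past it, at 103.0% and 106.0%. The early prophase markers were higher on the first array in 9 of 9 cases, 7 of them by over 1.5 times, where 51.8% of all probe sets tested were higher on the first. Of 44 other recombination and repair genes, 40 were higher on the first array and 19 by over 1.5 times, and none was over 1.5 times higher on the second. These are 2 arrays, and no test was made between them.

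**Figure D3:**
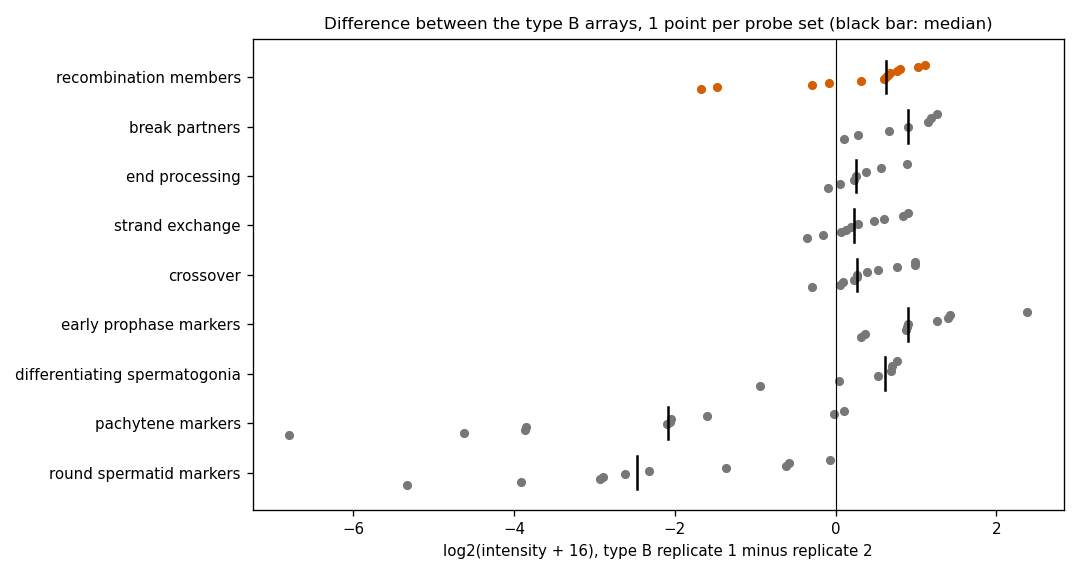
Difference of log2(intensity + 16) between the first and second type B array (horizontal axis, replicate 1 minus replicate 2), with 1 point per probe set, a black bar at each median and rows for the 13 recombination probe sets, gene lists of the pathway and marker lists. The 2 Psmc3ip points lie at -1.67 and -1.48 on the side of the pachytene and spermatid markers, and 9 of the 13 recombination points lie above 0.

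The wider pathway was described with 55 further genes, of which 44 had a probe set of their own and 43 were tested, each by its brightest probe set. Between pachytene spermatocytes and type A spermatogonia, 14 of the 43 rose and 14 fell, where 22.0% of all probe sets rose and 34.7% fell. The median change was 0.11 beside -0.27 over all probe sets. In spermatids against pachytene spermatocytes, 4 rose and 11 fell (11.7% and 15.7% over all probe sets), with a median of -0.40 beside -0.09. Against type B spermatogonia, 10 rose and 13 fell in pachytene spermatocytes (20.3% and 29.4% over all probe sets), 12 and 11 without the first type B array and 8 and 14 without the second. Between type B and type A spermatogonia none passed limma's adjusted test. These counts move with the arrays used. Without the first pachytene array 9 rose over type A spermatogonia, and on ribosomal protein probe sets 23 rose and 5 fell. With 1 pachytene or spermatid array left out, 3 to 5 genes fell in spermatids, and leaving out any array gave 1 to 5 that rose.

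Among partners of break formation, 1 of 6 tested rose and 3 fell in pachytene spermatocytes against type A spermatogonia, with a median of -1.17. The counts of this and the following lists are small and stand beside the same 22.0% higher and 34.7% lower over all probe sets. Atm, the kinase that answers breaks and limits their number, fell by 3.03 ± 0.28 (SE, limma adjusted p = 0.000187), and Rec114, which SPO11 needs to cut, by 1.94 ± 0.19 (limma adjusted p = 0.000219). Hormad1, a protein of the chromosome axis, rose by 1.30 ± 0.30 (limma adjusted p = 0.00658). Prdm9, which marks the places of breaks, differed by -0.96 ± 0.40 and did not pass (limma adjusted p = 0.0718), and its sign turned on ribosomal protein probe sets. Rec114 no longer passed on that scaling. So Spo11 rose where Rec114 and Atm fell.

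Of 7 end processing genes, 1 rose and 2 fell, with a median of -0.03. They are the 3 subunits of the protein that covers single strands: Rpa1 rose by 1.14 ± 0.20 (SE, limma adjusted p = 0.00183), Rpa2 fell by 1.87 ± 0.20 (limma adjusted p = 0.000275) and Rpa3 fell by 1.64 ± 0.20 (limma adjusted p = 0.000394). The falls of Rpa2 and Rpa3 did not pass on ribosomal protein probe sets. Meiob, a meiotic relative of Rpa1, differed by 0.40 ± 0.35 (limma adjusted p = 0.367).

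Of 10 other strand exchange genes, 4 rose and 2 fell, with a median of 0.44. Hsf2bp, which brings BRCA2 to meiotic breaks, rose by 2.52 ± 0.19 (SE, limma adjusted p = 0.000146), and Rad51ap1, an accessory of the recombinases, by 1.49 ± 0.20 (limma adjusted p = 0.000539). The rise of Rad51c, a paralogue of the recombinases, was 0.64 ± 0.24 (limma adjusted p = 0.0495) and was lost without the first type A array, either pachytene array or either spermatid array, and with the replicate block (limma adjusted p = 0.067). Both falls, of Rad54l by 0.90 ± 0.25 (limma adjusted p = 0.0156) and of Sfr1 by 0.54 ± 0.20 (limma adjusted p = 0.0454), turned sign on ribosomal protein probe sets, and none of the 10 was lower without the first type A or the first pachytene array, with 1 or 2 lower without any other array. With the replicate block the fall of Sfr1 did not pass (limma adjusted p = 0.0538), which left 1 of the 10 lower. In spermatids against pachytene spermatocytes 4 of the 10 fell, where 15.7% of all probe sets fell. The count was 0 on ribosomal protein probe sets, 2 on the 75th percentile and 7 with only the 4 arrays compared. It also moved when single arrays were left out.

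Of 11 other genes of crossover designation and resolution, 3 rose and 5 fell (22.0% and 34.7% over all probe sets), with a median of 0.06. Tex11, which acts with the synapsis and crossover machinery, fell by 3.96 ± 0.31 in pachytene spermatocytes against type A spermatogonia (SE, limma adjusted p = 0.000147) and rose by 2.32 ± 0.31 in spermatids over pachytene spermatocytes (limma adjusted p = 0.00141). It read 616.6 and 677.3 in type A spermatogonia, 1124.3 and 561.4 in type B spermatogonia, 29.9 and 23.7 in pachytene spermatocytes, and 204.7 and 190.1 in spermatids. Like Dmc1, it was lowest in pachytene spermatocytes and highest on the first type B array. Slx4, a scaffold for nucleases, rose by 2.13 ± 0.23 in pachytene spermatocytes (limma adjusted p = 0.000281), and Mus81, a nuclease that cuts joint molecules, by 1.46 ± 0.20 (limma adjusted p = 0.000658). Pms2, a mismatch repair subunit, fell by 2.16 ± 0.28 (limma adjusted p = 0.000491). Ccnb1ip1, a ligase needed for crossovers, differed by 0.25 ± 0.21 (limma adjusted p = 0.348) and fell by 1.16 ± 0.21 in spermatids against pachytene spermatocytes (limma adjusted p = 0.00526). Cntd1, a crossover factor, was represented by 1439405_x_at, which did not pass at 0.28 (limma adjusted p = 0.456). Its other probe sets, looked at after their values were seen, rose by 3.14 ± 0.26 on 1432480_a_at (limma adjusted p = 0.000148) and 3.26 ± 0.37 on 1460686_at (limma adjusted p = 0.000304). So the probe sets of this gene disagree. The other Atm probe set, 1428830_at, fell like the brightest, with a change of -2.15 ± 0.30 (limma adjusted p = 0.00065). The remaining list genes with several probe sets were judged by the brightest alone, so their calls and the list counts were not checked in this way.

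Of 6 genes that dissolve joint molecules or oppose crossovers, 4 rose and none fell in pachytene spermatocytes against type A spermatogonia, with a median of 0.79 and with 1 to 4 higher when any array was left out. The topoisomerase gene Top3a rose by 1.27 ± 0.26 (SE, limma adjusted p = 0.00357) and fell by 1.38 ± 0.26 in spermatids against pachytene spermatocytes (limma adjusted p = 0.00561), a fall that did not pass without the second spermatid array (limma adjusted p = 0.0541). Its partner Rmi1 rose by 1.04 ± 0.24 in pachytene spermatocytes (limma adjusted p = 0.0072), which did not pass without the first pachytene array (limma adjusted p = 0.0542). Of 3 other mismatch repair genes, relatives of Msh4, Msh5 and Mlh3 that act in dividing cells, Msh3 rose by 1.17 ± 0.25 (limma adjusted p = 0.00433), Msh6 fell by 1.09 ± 0.28 (limma adjusted p = 0.0121) and Pms1 fell by 2.83 ± 0.35 (limma adjusted p = 0.000421). The fall of Msh6 was lost without the second type A array, without the second pachytene array, on the 75th percentile and on ribosomal protein probe sets.

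**Figure D4:**
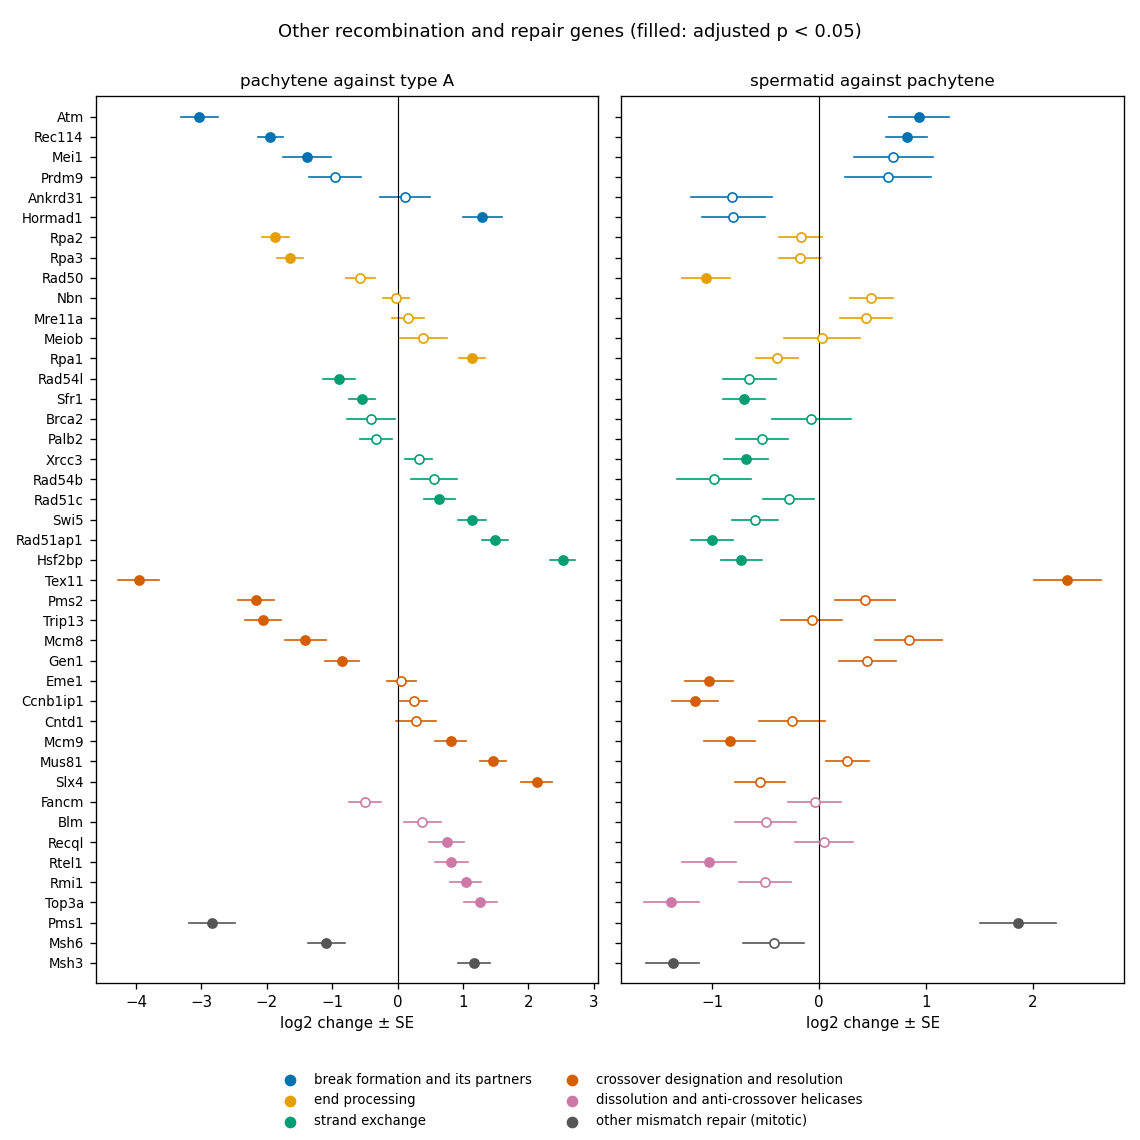
Change of log2(intensity + 16) ± SE of 43 other recombination and repair genes, by list, for pachytene spermatocytes against type A spermatogonia (left) and spermatids against pachytene spermatocytes (right, an axis of its own), filled where the limma adjusted p was under 0.05. Tex11 has the lowest value on the left (-3.96) and the highest on the right (2.32). The 10 strand exchange genes all lie below 0 on the right, where the median over all probe sets was -0.09.

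Profiles most like those of the members were sought over the 8 arrays for the 3 genes whose stage means spanned at least 2 log2 units, as the root mean square difference of centred log2 values. Nearest to Spo11 were Lef1 (0.160), Ptges3l (0.184) and Cntd1 on 1432480_a_at (0.190). Lef1, a transcription factor of the Wnt pathway, read 597.4 and 568.7 in pachytene spermatocytes, against 103.4 and 101.4 in type B spermatogonia. Nearest to Dmc1 on 1449819_at were Ell2 (0.176), Ugt8a (0.237) and Mms22l (0.253). Ell2, an elongation factor of RNA polymerase, read 517.0 and 237.0 on the type B arrays, split in the same direction as Dmc1 with 619.7 and 278.4. Closest to Psmc3ip on 1425271_at were Ift22 (0.087), Rangrf (0.119) and Serf1 (0.125). Ift22, a protein of transport in cilia, read 331.1 on the second type B array and 116.0 on the first. The likeness describes 8 arrays of 4 stages, and it includes the difference between the type B arrays.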

How the data were processed

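Per the labels, total RNA of 4 germ cell stages was hybridised to 8 arrays. The authors deposited 1 linear intensity per probe set and array, from MAS5 according to the submitters' processing notes. The version and detection calls were not given in the sources used here. With 2% of probe sets trimmed at either end, the mean was 125.0 on each array. The number of arrays limits the precision.

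Gene names came from the platform annotation, updated through a GRCm38.p6 gene table. Of 45101, 64 were controls, 34945 had 1 gene (34741 matched), 932 several and 9160 none. A probe set was tested when above its array's median on at least 2 of 8 arrays. limma 3.58.1 (R 4.3.3) was fitted to log2(intensity + 16) over all arrays with 1 mean per group (4 residual and 3.91 prior degrees of freedom), two-sided, Benjamini-Hochberg adjusted over 28635 probe sets. The steps were tested on simulated data. Alternatives were 3 scalings, pseudocounts of 1 and 64, no filter, 1 probe set per gene, the replicate number as a block, a trend, the 4 arrays compared alone, and each array left out.

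All member probe sets are named. Of each pathway list, up to 2 largest rises and 2 largest falls past the threshold between pachytene spermatocytes and type A spermatogonia are named, plus Prdm9, Meiob, Tex11, Ccnb1ip1 and Rad51c. The members and lists were chosen with earlier results of these data known. The p-values measure the spread between preparations, pooled over all 4 stages. The type B arrays therefore enter the SE of comparisons that hold none of them. With only the 4 arrays compared, Prdm9 passed between pachytene spermatocytes and type A spermatogonia (limma adjusted p = 0.0292). Rad51c (limma adjusted p = 0.0558) and Sfr1 (limma adjusted p = 0.0712) did not pass there.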

Additional observations from a re-analysis of the deposited data

How the results depend on the processing

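The counts of recombination probe sets kept within 1.5 times their value in 139 repeats and not in 5. For pachytene spermatocytes against type B spermatogonia, 8 were higher on ribosomal protein probe sets, and 3 to 5 with an array left out, the 3 without the second pachytene array. For pachytene spermatocytes against type A spermatogonia, 1 was lower on ribosomal protein probe sets. For spermatids against pachytene spermatocytes, 1 was higher with 1 probe set per gene. For type B against type A spermatogonia, 0 to 2 were higher with an array left out, the 2 being Psmc3ip without the first type B array. Signs turned only among changes that had not passed, except for Rad54l and Sfr1. On ribosomal protein probe sets pachytene against type A spermatogonia gave 0.036 for Prdm9, 0.098 for Rad54l, 0.452 for Sfr1 and 0.639 for Exo1 1418027_at, which was 0.065 under quantile normalization and 0.030 on the 75th percentile. Against type B spermatogonia, Exo1 1418027_at gave 0.036 (quantile), 0.013 (75th percentile) and 1.16 (ribosomal), Msh5 1430771_a_at gave 0.026 (quantile), 0.025 (75th percentile) and 1.172 (ribosomal), and Msh5 1449537_at gave 1.003 (ribosomal). With an array left out these ranged from -0.634 to 0.011, from -0.638 to 0.039 and from -0.977 to 0.041. For spermatids against pachytene spermatocytes the 75th percentile gave 0.042 and 0.016 for Psmc3ip (1425271_at, 1442058_s_at) and 0.016 for Msh5 1430771_a_at. With an array left out, these ranged from -0.232 to 0.200, from -0.169 to 0.084 and from -0.241 to 0.156, Msh4 from -0.167 to 0.202, and Meiob from -0.200 to 0.260. The cause was not tested. The labels do not say whether the replicate numbers pair the samples. Same-numbered arrays deviated together with correlations from -0.27 to 0.35 between stages, highest between type A spermatogonia and pachytene spermatocytes. Such correlations cannot settle whether arrays were paired. With the replicate block 5 and 3 probe sets were higher and lower against type B spermatogonia, and no call of a member changed. Of the other genes named, Sfr1 and Rad51c did not pass with it. Over all probe sets, centring on ribosomal protein probe sets gave 17678 higher and 1080 lower against type B spermatogonia (5804 and 8433 as deposited), 11469 and 2493 against type A spermatogonia (6286 and 9928), and 2057 lower in spermatids against pachytene spermatocytes (4504). Without the first type B array 1053 probe sets were higher and 81 lower in type B than in type A spermatogonia (0 and 0). With a pachytene or spermatid array left out, 1817 to 2456 were lower in spermatids, 2085 higher without the second spermatid array (3358), and 3811 higher in pachytene spermatocytes than in type B spermatogonia without the first pachytene array. The 2 arrays per stage limit what can be called.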
